A study of Homo sapiens with 42 samples.

Results

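The genes that handle imatinib in the cell were followed through all treatments as a set of 8, taken from the 58243 gene IDs of the count tables by symbol. The set holds the 4 cytochrome P450 genes of the CYP3A family (CYP3A5, CYP3A4, CYP3A7 and CYP3A43) and 4 genes of ATP-binding cassette (ABC) exporters (ABCB1, ABCG2, ABCC1 and ABCC4). All cells were K562, an established line from chronic myeloid leukaemia that carries the BCR-ABL1 fusion kinase. They were left untreated (CTRL) or received 1 μM imatinib (IM), which blocks that kinase, 5 μM JTE-607 (JTE), which inhibits the endonuclease CPSF73 of the 3′-end cleavage machinery, or 110 mM KCl added to the medium as a hyperosmotic shock. Poly(A) mRNA of whole cells was sequenced for CTRL, IM 1h, 6h and 18h, JTE 1h, 6h and 18h, and KCl 1h and 3h (27 libraries in 9 groups). Nuclear RNA depleted of ribosomal RNA was sequenced for CTRL, IM 1h, IM 18h, JTE 1h and KCl 1h (15 libraries in 5 groups). Each group had 3 libraries from separate biological experiments, and all treatments ended together with the untreated cells. The model is a single cultured line, so the values carry no liver, gut or patient cells.

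CYP3A enzymes sit in the endoplasmic reticulum and oxidise a large share of the drugs in clinical use, taking electrons from cytochrome P450 reductase. CYP3A4 and CYP3A5 are best known from adult liver and intestine, CYP3A7 from fetal liver, and CYP3A43 as a weakly expressed relative, and imatinib is broken down mainly by CYP3A4 and CYP3A5. ABCB1 (P-glycoprotein) and ABCG2 (breast cancer resistance protein) pump imatinib out of cells, whereas ABCC1 and ABCC4 belong to the multidrug resistance proteins, which export conjugated compounds and, for ABCC4, cyclic nucleotides.

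Library totals ran from 16439848 to 22505595 counts in mRNA, apart from KCl 1h replicates 2 and 3 with 62953314 and 42474454 counts, and from 16175394 to 25103205 counts in nuclear RNA. A level of 3 counts, below which a gene was treated as not measurable, corresponded to 0.0502 to 0.186 CPM (counts scaled to a common library total) in mRNA and 0.121 to 0.175 CPM in nuclear RNA. After a filter on low counts, 18095 mRNAs and 21929 genes in nuclear RNA remained for testing, among them 5 of the 8 members in each fraction (CYP3A5, ABCG2, ABCB1, ABCC1 and ABCC4), while CYP3A4, CYP3A7 and CYP3A43 lay under the filter in both. A gene passed the test with an absolute log2 fold change above 0.6 and a Benjamini-Hochberg adjusted p under 0.05 over all genes tested (edgeR, quasi-likelihood test). All 7 K562 markers looked at (GATA1, TFRC, HBG1, HBG2, HBE1, TAL1 and LMO2) exceeded 1 CPM in every group, whereas 0 of 7 hepatocyte markers did in any group, with APOB at 0 in the mRNA of CTRL and IM 18h. Of 5 enterocyte markers only VIL1 exceeded 1 CPM. Bulk counts cannot tell a change in RNA per cell from a change in the share of cells that express a gene.

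The 4 CYP3A genes lie within 217909 bases on chromosome 7 (hg38), together with 4 further annotated genes or pseudogenes. CYP3A5 (ENSG00000106258) spans chr7:99648194-99679998, CYP3A7 (ENSG00000160870) chr7:99705037-99735196 and CYP3A4 (ENSG00000160868) chr7:99756960-99784265, all on the minus strand, and CYP3A43 (ENSG00000021461) spans chr7:99828013-99866102 on the plus strand. Each has 13 exons in its main transcript, and the counts are of read pairs over exons. The first 60 coding bases are shown because they let a reader see how alike, and yet separable, the 4 transcripts are; capitals mark bases that differ from CYP3A5.
CYP3A5: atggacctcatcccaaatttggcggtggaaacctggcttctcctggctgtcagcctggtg
CYP3A4: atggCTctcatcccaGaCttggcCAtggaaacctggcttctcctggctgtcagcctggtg
CYP3A7: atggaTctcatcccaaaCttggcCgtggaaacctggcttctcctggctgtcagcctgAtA
CYP3A43: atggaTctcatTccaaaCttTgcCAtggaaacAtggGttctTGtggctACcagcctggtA
In this stretch CYP3A4 differed from CYP3A5 at 6 bases, CYP3A7 at 5 and CYP3A43 at 13. Over the whole coding sequence CYP3A5 was identical to CYP3A4 at 89.5% of aligned bases, to CYP3A7 at 88.6% and to CYP3A43 at 83.3%. Shared sequence matters for the counts, both as exact repeats, because only uniquely mapped reads were counted, and where exons of annotated genes overlap. Of all windows of 150 bases (the read length) in the main CYP3A5 transcript, 0.0% recurred in another gene's transcripts. That transcript has 1720 bases, against 6731 exonic bases counted, and the rest was not searched. CYP3A7 is the exception, since 70.3% of its windows recur, nearly all in the annotated readthrough gene CYP3A7-CYP3A51P, with which it shares 42.7% of its exonic bases, so its counts are a minimum.

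In untreated cells the 8 members fell into tiers of mRNA level per length (RPKM, the CPM divided by the exonic length in kilobases). ABCC4 and ABCC1 were the abundant members, with 18.1 ± 2.73 and 17.1 ± 1.11 RPKM (SD, n = 3), and their libraries overlapped, so the order between them is not resolved. CYP3A5 with 0.271 ± 0.0576 RPKM and ABCG2 with 0.232 ± 0.0745 RPKM formed the middle tier and overlapped as well. This tier depends on the length used. The exonic length covers all annotated exons, 6731 bases for CYP3A5 against 1720 in its main transcript, and 4848 against 4206 for ABCG2. Per main transcript CYP3A5 would stand higher against the other members. ABCB1 came next with 0.0780 ± 0.0292 RPKM, with no library reaching the lowest ABCG2 library. CYP3A4, CYP3A7 and CYP3A43 had mean levels of 0.0228, 0.0153 and 0.0140 RPKM, which rest on 0 to 2 read pairs per library and do not separate.

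CYP3A5 was selected on its high mRNA level after 6 h of imatinib, so its mRNA levels against CTRL are described here without a test. CTRL replicates 1, 2 and 3 held 1.93, 2.15 and 1.39 CPM (35, 41 and 25 read pairs). IM 1h held 2.04, 3.04 and 2.43 CPM, IM 6h 10.4, 14.0 and 28.8 CPM, and IM 18h 61.3, 38.9 and 36.1 CPM (1131, 739 and 657 read pairs). The IM 1h libraries overlapped those of CTRL, every IM 6h library lay above them, and every IM 18h library lay above every IM 6h library. The fitted log2 fold change was 0.46 (SE 0.36, 95% interval -0.29 to 1.21) at 1 h, 3.27 (SE 0.34, 2.56 to 3.98) at 6 h and 4.63 (SE 0.35, 3.90 to 5.36) at 18 h, the last of which corresponds to a 24.8-fold higher level. The spread at 6 h came mainly from replicate 3, and without it the log2 fold change was 2.71. At 18 h CYP3A5 reached 6.75 ± 2.06 RPKM. On this scale it lay between the abundant transporter ABCC1 (14.5 ± 0.896 RPKM) and ABCG2 (0.875 ± 0.374 RPKM), with no overlap on either side. Its place below ABCC1 depends on the exonic length used, since its main transcript is much shorter.

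**Figure D1:**
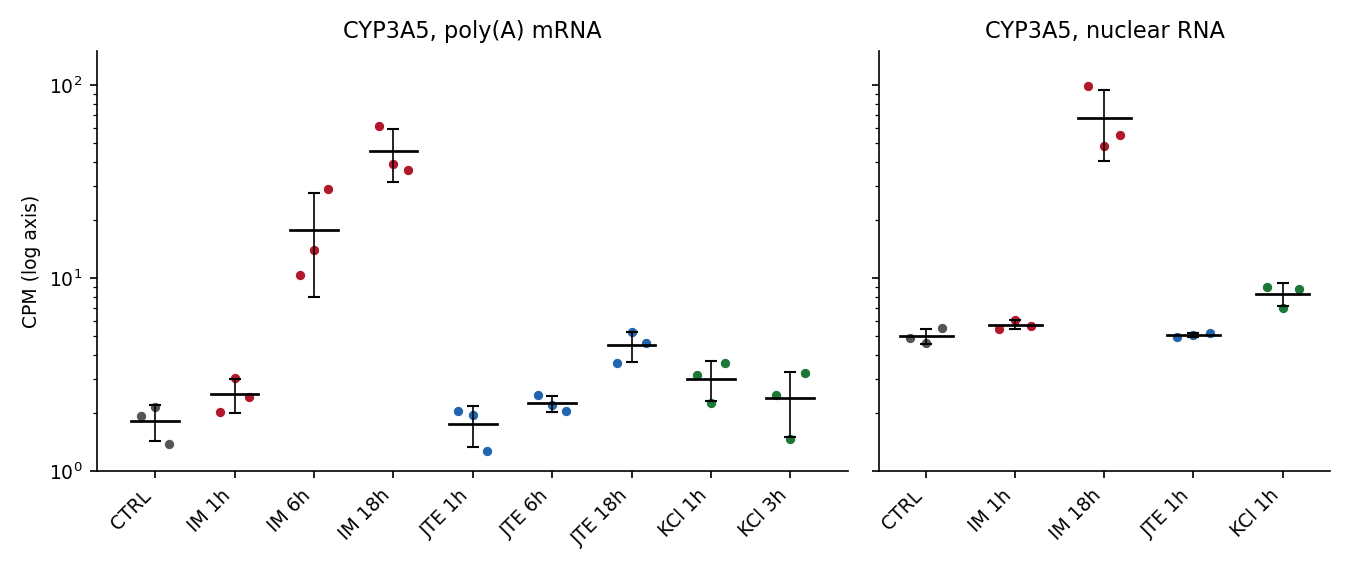
CYP3A5 level in CPM (log axis) in every library of poly(A) mRNA (left) and nuclear RNA (right). Points are libraries, bars the mean and whiskers the SD of 3 libraries, and the IM 18h libraries lie between 36.1 and 61.3 CPM in mRNA and between 48.4 and 98.4 CPM in nuclear RNA, above all other groups of their fraction.

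The IM 18h libraries were also set against IM 1h and, at the matched time, against JTE 18h. Since these comparisons hold the rise on which CYP3A5 was selected, they are descriptions for this gene. The CYP3A5 log2 difference was 4.18 (SE 0.34, 95% interval 3.47 to 4.88) from IM 1h and 3.34 (SE 0.32, 2.67 to 4.01) from JTE 18h, with every IM 18h library above every library of both groups. Of the 4 transporters, 2 passed between IM 18h and IM 1h (29.3% of all genes did) and 1 passed between IM 18h and JTE 18h (30.3% of all genes).

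In nuclear RNA, unspliced and newly made transcripts are also counted. Its 18 h comparison holds the same imatinib rise in another fraction, so it is a description for CYP3A5. CYP3A5 held 4.91, 4.64 and 5.49 CPM in nuclear CTRL, 5.49, 6.08 and 5.66 CPM in IM 1h, and 98.4, 48.4 and 55.2 CPM in IM 18h (2414, 1013 and 944 read pairs). The 18 h libraries stood far above the others, with a described log2 fold change of 3.75 (SE 0.22). At 1 h the difference was 0.20 (SE 0.22, 95% interval -0.27 to 0.67, edgeR adjusted p = 0.893), which leaves room for a change of up to 1.59-fold. In nuclear IM 18h, 1 of the 4 transporters passed, beside 32.6% of all genes. At IM 1h, 0 of 5 passed by edgeR in nuclear RNA (0.0456% of all genes), and 0 of 4 in mRNA (0.0166%), with 0 members at an unadjusted p under 0.05 and 0 by DESeq2 in both.

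Erythroid genes moved with CYP3A5 under imatinib. Of 16 erythroid genes, all of them tested, 15 rose in mRNA at IM 18h, beside 30.5% of all genes called. Their median log2 fold change was 2.08 against 0.04 over all genes. In nuclear RNA 14 rose (median 1.90 against 0.00), beside 32.6% of all genes called. SLC4A1, the anion exchanger of the red cell membrane, stood highest among them with a log2 fold change of 6.53 (edgeR adjusted p = 0.000432). EPB42, another membrane protein of red cells, rose by 4.85 and ALAS2, the erythroid enzyme that starts heme synthesis, by 3.83. The embryonic globin gene HBZ rose by 3.08, the fetal globin gene HBG2, whose reads are partly shared with HBG1, by 1.61, and the transferrin receptor gene TFRC by 0.72. Summed over the 7 K562 markers, mRNA libraries held 4082 to 5396 CPM in CTRL and 10774 to 15208 CPM in IM 18h. GATA1 was the single listed erythroid gene that did not rise in mRNA (165 and 144 CPM). The enterocyte markers summed to 2.12 to 4.02 CPM in CTRL and 4.23 to 9.29 CPM in IM 18h, with APOA4 and SI at 0, and the hepatocyte markers to at most 0.668 and 0.578 CPM. Lymphocyte markers summed to 86.9 to 128 CPM in CTRL and 86.5 to 133 CPM in IM 18h, with MS4A1 at 0, fibroblast markers to 3.84 to 8.90 and 2.37 to 4.12 CPM, and monocyte markers to 5.91 to 11.4 and 3.31 to 7.80 CPM. The part of these shifts in the CYP3A5 level was not tested.

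JTE and KCl came with smaller differences in CYP3A5. JTE 1h held 2.04, 1.97 and 1.28 CPM, JTE 6h 2.48, 2.22 and 2.06 CPM, and JTE 18h 3.64, 5.23 and 4.60 CPM, so that JTE 18h alone cleared the CTRL libraries. Between JTE 18h and JTE 1h the difference of 1.34 passed the test (SE 0.35, edgeR adjusted p = 0.0154), and CYP3A5 was the 1 member of 5 to pass, beside 5.86% of all genes. Leaving out JTE 18h replicate 2, JTE 18h replicate 3 or JTE 1h replicate 3 ended this call (edgeR adjusted p = 0.0564, 0.0523 and 0.0797). The erythroid genes had a median log2 fold change of -0.14 at JTE 18h against CTRL, and the K562 markers summed to 2850 to 4091 CPM there. The enterocyte markers summed to 5.16 to 10.0 CPM at JTE 18h, with APOA4 and SI at 0, and their part in the result was not tested.

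KCl gave 3.15, 2.26 and 3.62 CPM of CYP3A5 mRNA at 1 h and 2.49, 1.46 and 3.21 CPM at 3 h. The 1 h libraries lay just above CTRL, by a described log2 fold change of 0.71 (SE 0.35, 95% interval -0.01 to 1.43), which was 0.90 without the deepest library, replicate 2, and 0.53 without replicate 3. Between 3 h and 1 h the difference was -0.33 (SE 0.33, 95% interval -1.01 to 0.36, edgeR adjusted p = 0.769), and 0 of 5 members passed by edgeR (3.29% of all genes), with 0 at an unadjusted p under 0.05 and 0 by DESeq2. In nuclear RNA KCl 1h held 169, 150 and 182 read pairs (8.26 ± 1.12 CPM), against 110, 102 and 111 in CTRL (5.01 ± 0.433 CPM), and all KCl libraries lay above CTRL on both scales. This rise of 0.72 passed the test (SE 0.22, edgeR adjusted p = 0.0175), making CYP3A5 the 1 of 5 members called there, where 23.8% of all genes were. The call was lost without nuclear CTRL replicate 1 or 2 or KCl 1h replicate 1 or 3 (edgeR adjusted p between 0.0581 and 0.0701). Nuclear JTE 1h held 4.98, 5.07 and 5.20 CPM, a difference of 0.02 from CTRL (95% interval -0.45 to 0.49, edgeR adjusted p = 0.972).

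The 3 other CYP3A genes were close to the limit of detection. Over the 27 mRNA libraries CYP3A4 had 0 to 16 read pairs, CYP3A7 0 to 6 and CYP3A43 0 to 6, and they were at 0 in 5, 8 and 14 libraries, respectively. The 16 read pairs of CYP3A4 came from the deepest library (KCl 1h replicate 2, 0.268 CPM). At IM 18h, where CYP3A5 had 657 to 1131 read pairs, CYP3A4 had 1 read pair in each library, CYP3A7 had 1, 6 and 2, and CYP3A43 had 1, 0 and 2. CYP3A4 and CYP3A43 thus stayed under 3 read pairs in every IM 18h library, and CYP3A7 exceeded that in 1 of them. CYP3A7-CYP3A51P and CYP3A51P, a pseudogene of the cluster, had 0 read pairs in all 3 IM 18h mRNA libraries, which allows up to 3 read pairs in each.

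Their counts were highest in nuclear RNA after KCl. CYP3A4 had 1, 1 and 2 read pairs in nuclear CTRL and 11, 8 and 15 in KCl 1h, a ratio of 8.94 relative to library totals (95% exact interval 3.19 to 34.7, counting error only). For CYP3A7, CTRL had 3, 4 and 4 read pairs and KCl 1h had 11, 7 and 21, a ratio of 3.73 (1.87 to 8.07), and for CYP3A43, CTRL had 0, 2 and 0 and KCl 1h had 6, 5 and 11, a ratio of 11.6 (2.84 to 101). In all 3 genes every KCl library held more read pairs than every CTRL library. The share of all genes separated in this way was not counted. When the filter on low counts was dropped, edgeR called all 3, with log2 fold changes of 3.02 for CYP3A4 (adjusted p = 0.000134), 1.84 for CYP3A7 (0.00409) and 3.29 for CYP3A43 (0.00221), beside 19% of all genes. DESeq2 called CYP3A4 (adjusted p = 0.00915) and CYP3A7 (0.035) and not CYP3A43 (0.0602), beside 16.9% of all genes. Of the other cluster genes, CYP3A51P had 0, 0 and 1 read pairs in CTRL and 1, 2 and 4 in KCl 1h. In nuclear KCl 1h, 7 of 21 other cytochrome P450 genes tested rose, with a median log2 fold change of 0.42 against 0.02 over all genes, beside 23.8% of all genes called. Of 34 other ABC genes 26.5% were called, all higher, near that share and with a median below 0.01. Monocyte markers summed to 7.71 to 8.01 CPM in nuclear CTRL and 17.2 to 26.2 CPM in KCl 1h, enterocyte markers to 2.59 to 4.64 and 6.02 to 10.8 CPM, and hepatocyte markers to at most 0.692 and 1.45 CPM, and their part in these counts was not tested. Smaller separations from CTRL, on few read pairs, were those of CYP3A7 in nuclear IM 18h (5, 8 and 5, ratio 1.77, 95% exact interval 0.791 to 4.14) and nuclear JTE 1h (6, 5 and 10, ratio 1.77, 0.817 to 4.07). In mRNA, CYP3A4 cleared the 2, 2 and 0 read pairs of CTRL in KCl 3h (4, 5 and 6) and, relative to library totals, in JTE 6h (2, 4 and 3). In mRNA KCl 1h none of the 3 genes was called by edgeR without the filter or by DESeq2.

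**Figure D2:**
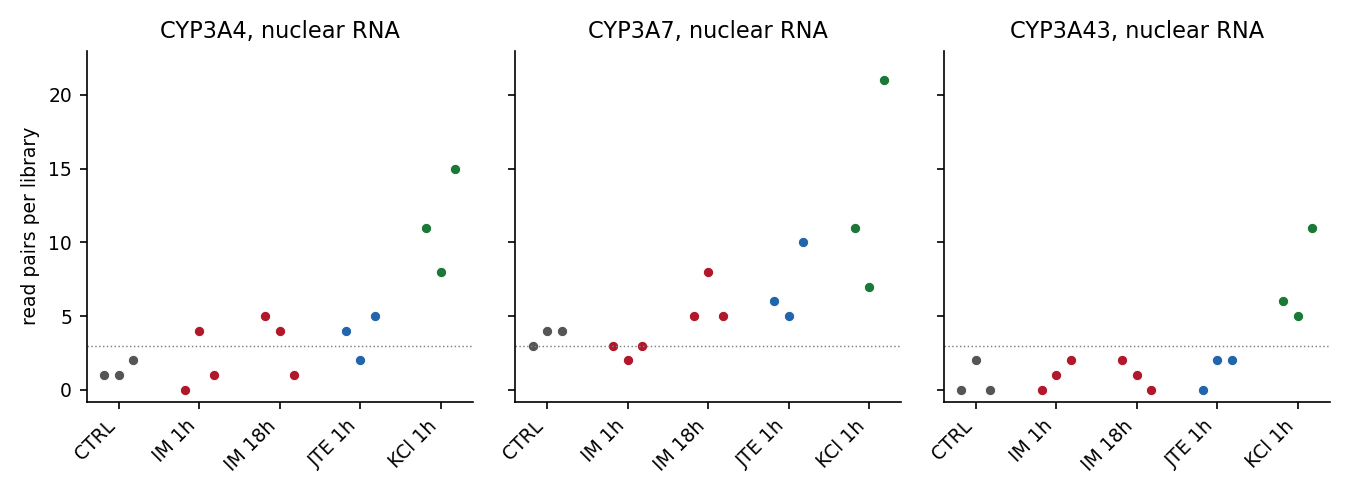
Read pairs per nuclear RNA library for CYP3A4, CYP3A7 and CYP3A43 in each of the 5 groups, 1 point per library, with the dotted line at 3 read pairs. The KCl 1h libraries hold 5 to 21 read pairs, whereas the CTRL libraries hold 0 to 4.

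The start regions of CYP3A5 and CYP3A4 are shown because the levels of these neighbours differed so widely in one cell line. They are the 250 bases before each gene's start (RefSeq, GRCh38.p14, both read along the minus strand, 5′ to 3′), CYP3A5 from chr7:99679997-99680246 and CYP3A4 from chr7:99784185-99784434. The starts are those of RefSeq, and by the gene positions used in counting, 81 bases of the CYP3A4 window and 2 of the CYP3A5 window lie inside the gene. Capitals mark the GATA-type motif TGATAA, the nuclear receptor core hexamer AGGTCA, its variant AGTTCA (found on the other strand and so written TGAACT), and the TATA box motif TATAAA.
CYP3A5: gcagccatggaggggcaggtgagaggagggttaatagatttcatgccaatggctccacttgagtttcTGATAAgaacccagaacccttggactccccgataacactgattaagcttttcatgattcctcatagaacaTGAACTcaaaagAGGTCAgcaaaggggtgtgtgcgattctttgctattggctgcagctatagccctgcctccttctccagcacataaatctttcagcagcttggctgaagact
CYP3A4: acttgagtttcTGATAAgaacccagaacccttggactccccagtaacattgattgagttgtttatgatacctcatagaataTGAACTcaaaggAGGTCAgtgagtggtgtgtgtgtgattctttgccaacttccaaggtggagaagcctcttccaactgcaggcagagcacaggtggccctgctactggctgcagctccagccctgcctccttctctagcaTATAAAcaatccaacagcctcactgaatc
Counted from the RefSeq starts, both regions held the GATA-type motif, the variant hexamer and the core hexamer in the same order, at 183, 113 and 101 bases before the start in CYP3A5 and at 239, 169 and 157 bases in CYP3A4. TATAAA was found in CYP3A4, 29 bases before its start, and not in this window of CYP3A5. Including 50 bases after the start, the regions were identical at 85.9% of 241 aligned bases. These motifs are common. Among 35116 RefSeq promoter windows of 300 bases, searched on both strands, 7.5% held TGATAA, 10.4% AGTTCA, 13.8% AGGTCA and 11.5% TATAAA.

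ABCG2 (ENSG00000118777, chr4:88090264-88231322, minus strand), which exports imatinib and also porphyrins, was the transporter that rose. Its mRNA held 1.54, 0.890 and 0.947 CPM in CTRL (28, 17 and 17 read pairs), 1.89, 1.11 and 3.02 CPM in IM 6h, and 6.29, 3.58 and 2.86 CPM in IM 18h (116, 68 and 52 read pairs). The IM 18h libraries all lay above CTRL, while IM 6h overlapped it. At IM 18h the log2 fold change was 1.91 (SE 0.34, edgeR adjusted p = 8.97e-05), and 2 of the 4 transporters passed there, beside 30.5% of all genes. Of these 1 was higher (17.2% of all genes) and 1 lower (13.3%). It was 1.93 against IM 1h (edgeR adjusted p = 7.47e-05) and 1.95 against JTE 18h (edgeR adjusted p = 7.4e-05). The value at 6 h, described without a test because the set was drawn up from that comparison (in which 9.94% of all genes were called), was 0.83 (SE 0.35), and 0.40 without replicate 3. Nuclear RNA held 0.669, 0.910 and 1.19 CPM in CTRL and 5.10, 2.24 and 2.51 CPM in IM 18h, a rise of 1.85 (SE 0.41, edgeR adjusted p = 0.00112) without overlap. The mean level was thus 3.77 times that of CTRL in mRNA and 3.56 times in nuclear RNA. In the other groups tested against CTRL, ABCG2 did not pass, and its highest mRNA log2 fold change there was 0.51 (KCl 3h, 95% interval -0.22 to 1.24, edgeR adjusted p = 0.398).

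ABCB1 (ENSG00000085563, chr7:87503633-87713323, minus strand), the classical efflux pump of drug-resistant cells, was scarce and went the other way. It had 5, 9 and 11 read pairs in mRNA CTRL (0.275, 0.471 and 0.613 CPM), 9, 6 and 18 in IM 1h, 6, 4 and 7 in IM 6h, and 4, 1 and 1 in IM 18h (0.217, 0.0526 and 0.0550 CPM). No IM 18h library reached a CTRL library, although the last 2 lie below 3 read pairs. ABCB1 fell by 2.01 on the log2 scale against CTRL (SE 0.77, 95% interval -3.60 to -0.42, edgeR adjusted p = 0.037) and by 2.23 against IM 1h (SE 0.74, edgeR adjusted p = 0.0185). Leaving out replicate 2 or 3 of either CTRL or IM 18h ended the first call (edgeR adjusted p between 0.0648 and 0.116), and leaving out IM 1h replicate 3 or IM 18h replicate 2 or 3 ended the second (between 0.07 and 0.101). The difference from JTE 18h, which had 6, 4 and 2 read pairs, was -0.96 (SE 0.87, 95% interval -2.75 to 0.83, edgeR adjusted p = 0.388). In nuclear RNA, CTRL had 16, 10 and 3 read pairs and IM 18h 5, 2 and 5, so that the groups overlapped. The nuclear difference of -1.19 did not pass (SE 0.58, edgeR adjusted p = 0.104), but with libraries blocked by replicate number it was -1.20 with an adjusted p of 0.0458, and without CTRL replicate 3 it was -1.52 with 0.031.

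**Figure D3:**
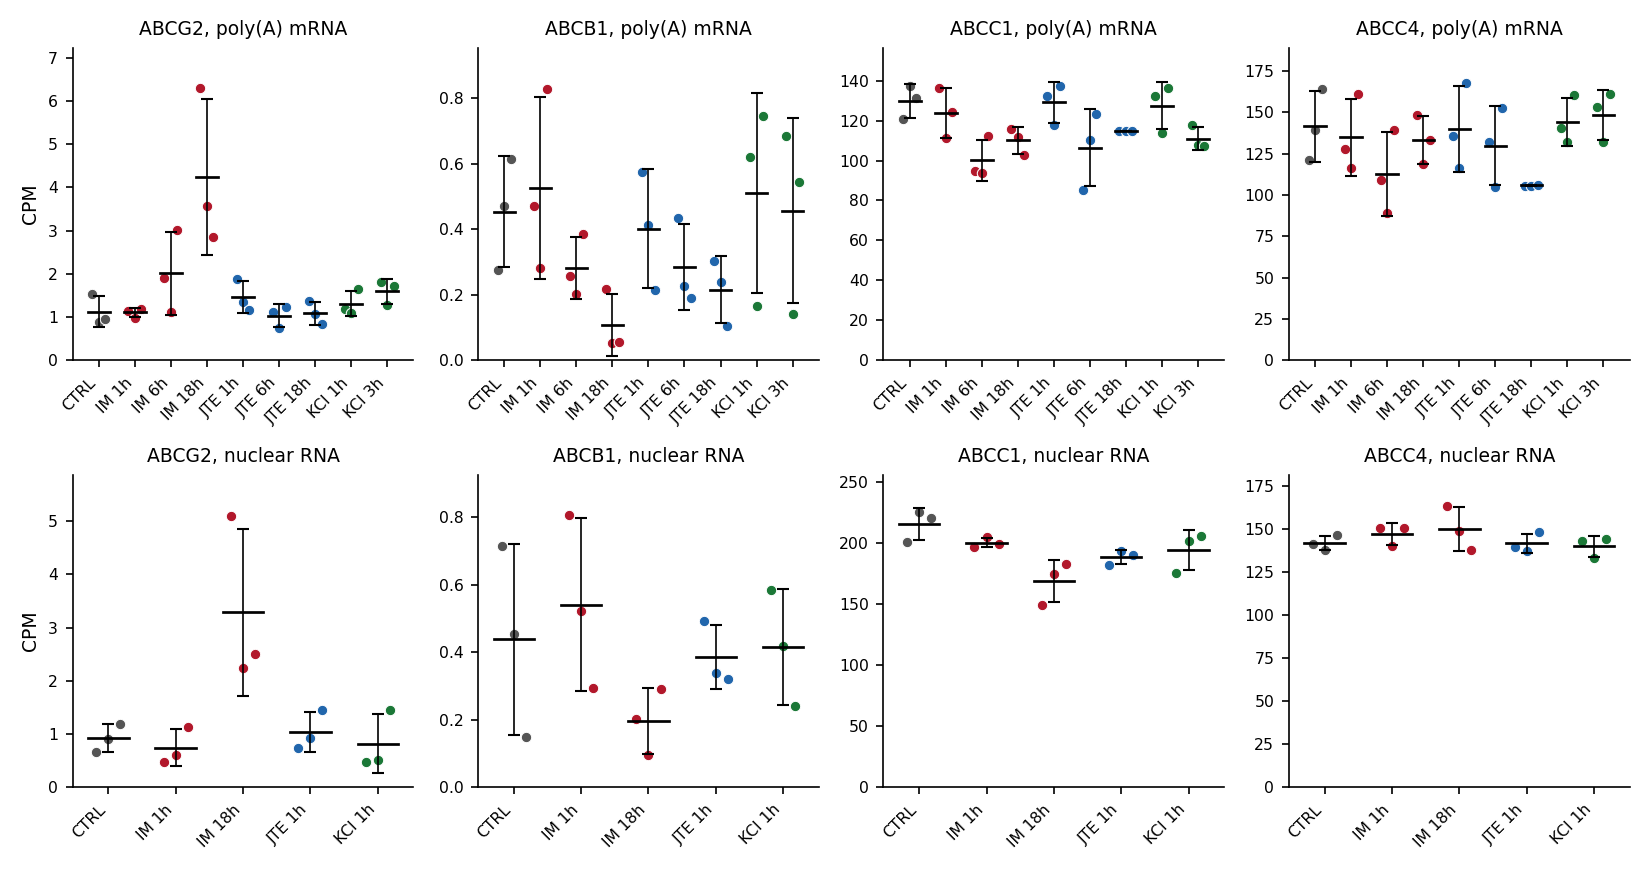
Levels of ABCG2, ABCB1, ABCC1 and ABCC4 in CPM (each axis from 0) in every library of poly(A) mRNA (top row) and nuclear RNA (bottom row). Points are libraries, bars the mean and whiskers the SD of 3 libraries; ABCG2 is higher and ABCB1 lower in the mRNA of IM 18h, whereas ABCC1 and ABCC4 stay between 85.4 and 168 CPM in all mRNA libraries.

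ABCC1 (ENSG00000103222, chr16:15949577-16143074, plus strand) and ABCC4 (ENSG00000125257, chr13:95019829-95301446, minus strand) were abundant and changed little. ABCC1 mRNA held 121, 137 and 131 CPM in CTRL and 116, 112 and 103 CPM in IM 18h. These groups did not overlap, yet in the 7 mRNA comparisons with CTRL that were tested the log2 fold changes ran from -0.28 to -0.01 and none passed (lowest edgeR adjusted p 0.0847). In nuclear RNA, ABCC1 held 201, 226 and 220 CPM in CTRL and 149, 175 and 183 CPM in IM 18h. This difference of -0.35 had an edgeR adjusted p of 0.00421 (SE 0.09) but was smaller than the 0.6 required.

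ABCC4 mRNA held 121, 139 and 164 CPM in CTRL, 148, 119 and 133 CPM in IM 18h and 106, 106 and 106 CPM in JTE 18h. The JTE 18h libraries were almost identical to each other and all below CTRL, with a log2 fold change of -0.42 that did not pass (SE 0.16, 95% interval -0.76 to -0.08, edgeR adjusted p = 0.119). Across the 7 tested mRNA comparisons with CTRL the values ran from -0.42 to 0.07, and the 4 nuclear comparisons ran from -0.02 to 0.08 with a lowest edgeR adjusted p of 0.475. The described ABCC4 value at IM 6h was -0.33 (SE 0.16, 95% interval -0.67 to 0.01), with libraries that overlapped CTRL. Long introns touch these genes, because alignments across introns over 10000 bases were not allowed and ABCC4 has 7 such introns, ABCC1 4, ABCB1 3 and ABCG2 1, whereas the CYP3A genes have none.

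Outside imatinib the transporters gave no call in mRNA. Of the 4 tested, 0 passed by edgeR in JTE 1h (0.851% of all genes), JTE 6h (13.2%), JTE 18h (5.39%), KCl 1h (5.45%) and KCl 3h (11.9%), and 0 by DESeq2 in each. At an unadjusted p under 0.05 stood 1 in JTE 6h (ABCC1) and 1 in JTE 18h (ABCC4), and 0 in the others. In nuclear JTE 1h, 0 of 5 members passed by edgeR (8.52% of all genes) and 0 by DESeq2, with ABCC1 alone at an unadjusted p under 0.05.

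**Figure D4:**
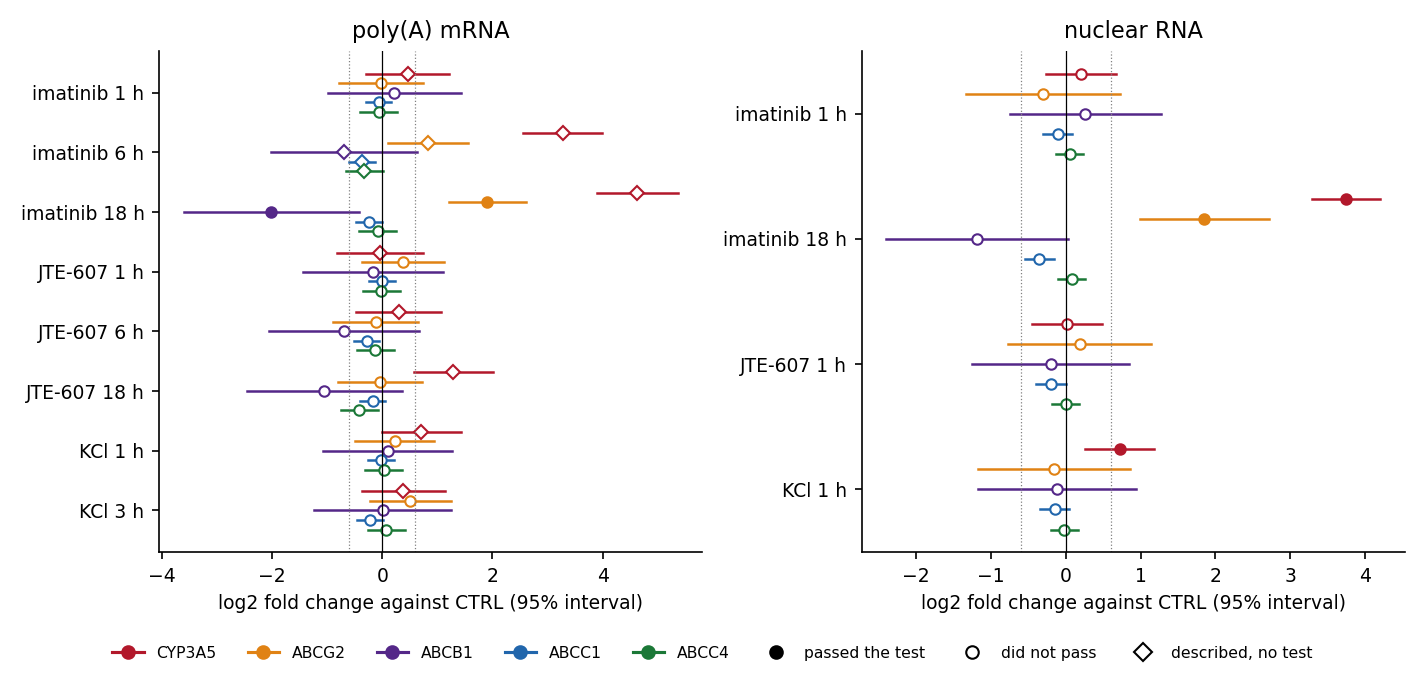
Fitted log2 fold change against CTRL (x axis) for the 5 members that could be fitted, by treatment (y axis), in poly(A) mRNA (left) and nuclear RNA (right). Horizontal lines are 95% intervals, filled symbols passed the test, open circles did not, and diamonds are described without a test. Dotted lines stand at -0.6 and 0.6. The filled CYP3A5 symbol of nuclear IM 18h is treated as a description in the text. CYP3A5 at IM 18h reaches 4.63 in mRNA and 3.75 in nuclear RNA, and ABCG2 1.91 and 1.85.

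Nuclear and mRNA responses were also set against each other. At IM 18h the nuclear log2 fold change exceeded that of mRNA by 0.02 for ABCG2 (95% interval -0.99 to 1.03), and by edgeR 0 of 3 members tested passed (0.0851% of all genes). For CYP3A5, described only, it was -0.81 (SE 0.43, -1.73 to 0.12). By edgeR 0 of 4 passed for JTE 1h (0.0605%) and 0 of 4 for KCl 1h (0.668%). For all 3 treatments 0 stood at an unadjusted p under 0.05 and 0 passed by DESeq2.

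Other genes of drug handling were read from lists to see how the members compare. Of 6 uptake carriers tested in mRNA at IM 18h, 3 rose and 2 fell, beside 30.5% of all genes called. SLCO1A2, an organic anion carrier for which imatinib is a reported substrate, rose by 2.70 on the log2 scale (3.62 and 23.7 CPM, edgeR adjusted p = 4.86e-07), the carnitine and cation carriers SLC22A4 and SLC22A5 rose by 2.09 and 1.11, and SLCO4A1 and SLCO2B1 fell by 2.00 and 1.78. Of 27 other ABC genes, 10 rose and 4 fell (51.9% called, beside 30.5% of all genes), with a median of 0.38. Among those reaching 1 CPM, the largest changes were the rises of ABCA6 (2.22), ABCA8 (2.05) and ABCA5 (1.69), lipid transporters of the ABCA class, and of ABCB10 (1.77), a mitochondrial transporter needed for heme synthesis. The most abundant, ABCE1 and ABCF1, which act in translation rather than in export, fell by 1.09 and 1.08, as did ABCF2 of the same class (1.36) and the peptide transporter gene TAP2 (1.37). ABCG2 with 1.91 thus lay among the larger rises of its family.

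Of 16 other cytochrome P450 genes tested in mRNA at IM 18h, 2 rose and 3 fell (31.2% called, beside 30.5% of all genes, with a median of 0.42). In nuclear RNA 7 of 21 rose and 2 fell, CYP26A1 and CYP27B1 (42.9% called, beside 32.6%). The largest nuclear rises were those of CYP4Z1 (log2 fold change 2.51) and CYP4A22 (2.46, 0.779 and 4.21 CPM), both under the filter in mRNA. CYP8B1, an enzyme of bile acid synthesis that lay under the filter in both fractions, had mean nuclear levels of 0.0152 CPM in CTRL and 0.502 CPM in IM 18h. In mRNA, CYP2F1 rose by 1.58 on the log2 scale (0.473 and 1.42 CPM, edgeR adjusted p = 0.0378), and CYP27B1, which activates vitamin D, and CYP51A1, a sterol demethylase, fell by 1.39 and 0.90. The remaining calls were CYP19A1 (aromatase, 2.18) and CYP26A1, which breaks down retinoic acid (-1.66), both under 1 CPM. CYP2R1 and CYP20A1, the most abundant of the list, had log2 fold changes of 0.37 and 0.13 and did not pass.

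Among 15 regulators and electron donors of CYP3A enzymes, 4 rose and 2 fell (40% called, beside 30.5% of all genes), with a median of -0.14. VDR, the vitamin D receptor that can switch on CYP3A genes, fell by 2.55 on the log2 scale (4.13 and 0.701 CPM, edgeR adjusted p = 9.67e-09). PPARA and RXRB, nuclear receptors, rose by 1.06 and 0.66 and CYB5R3, which reduces cytochrome b5, rose by 0.63. The remaining calls were ARNT (0.62) and the liver factor gene FOXA2 (-3.42), which had 5, 24 and 17 read pairs in CTRL and 2, 0 and 2 in IM 18h. PGRMC1 (-0.47, short of the fold required) and NFE2L2 (-0.62, edgeR adjusted p = 0.0752) were the most abundant of the list and did not pass. Of 12 genes of conjugation and related detoxification, 3 rose and 1 fell (33.3% called, beside 30.5% of all genes, with a median of 0.05), with GSTM2 at 2.18, GSTM3 at 1.22, EPHX1 at 0.72 and the quinone reductase NQO1 at -1.09. GSTP1 (-0.26) and GSTO1 (-0.16) did not pass.

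NR1I2, which encodes the pregnane X receptor, the best known drug-activated switch of CYP3A genes, was singled out after its values were seen. Its mRNA lay under the filter, with 0, 1 and 1 read pairs in CTRL, 2, 6 and 3 in IM 6h and 21, 6 and 15 in IM 18h, a ratio of 21.4 at 18 h (95% exact interval 5.55 to 182, counting error only). In nuclear RNA it had 0, 0 and 1 read pairs in CTRL, 1, 1 and 2 in IM 1h, 28, 18 and 16 in IM 18h, 0, 3 and 1 in JTE 1h and 15, 12 and 28 in KCl 1h. NR1I2 was thus at or near 0 in untreated cells, and its nuclear counts were higher in IM 18h and KCl 1h. KCl mRNA held 0, 1 and 0 read pairs of NR1I2 at 1 h and 3, 1 and 0 at 3 h. In nuclear RNA its ratio to CTRL was 67.0 (11.6 to 2689) in IM 18h and 57.8 (9.96 to 2325) in KCl 1h. The gene was picked on these values, so no p-value is given. In JTE 18h mRNA, NR1I2 had 0, 0 and 6 read pairs. Of the 17 regulators tested in nuclear IM 18h, 4 rose (NR1I2, RXRA, ARNT and PPARA) and 5 fell (NR1I3, VDR, FOXA2, NFE2L2 and PGRMC1). That is 52.9% called, beside 32.6% of all genes. NR1I2 passed the filter on low counts only through IM 18h and KCl 1h, where it is high, so its call there supports nothing. NR1I3, the related constitutive androstane receptor, also named after its values were seen, went from 33, 45 and 52 to 16, 17 and 21 read pairs (log2 fold change -1.20). Whether the receptor levels bear on CYP3A5 was not tested.

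The genes next to the CYP3A cluster gave 1 call and no change near the size of that of CYP3A5. Of 9 neighbours tested in mRNA at IM 18h, 1 rose (11.1% called, beside 30.5% of all genes). It was TRIM4, by 0.61 on the log2 scale (34.4 and 52.4 CPM, edgeR adjusted p = 0.00506). ZNF655 had 0.35 (edgeR adjusted p = 0.027, under the fold required), and ZSCAN25, ZKSCAN5, FAM200A, ZNF789, ZNF394, ATP5MF and CPSF4 ran from -0.22 to 0.24 and did not pass. The median of the 9 was 0.12, against 0.04 over all genes. In nuclear RNA 1 of 10 rose, again TRIM4 (0.69, edgeR adjusted p = 2.18e-05), beside 32.6% of all genes called.

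The mRNA patterns most like that of each member were sought over the 27 libraries, among 12943 genes, as Pearson correlations of log2(CPM + 0.5), given without a test because the libraries share treatments. Closest to CYP3A5 were ALAD, an enzyme of heme synthesis (r = 0.966), ERMAP, an erythroid membrane protein (0.964), the amino acid transporter gene SLC36A1 (0.963), FAXDC2 (0.957) and LMOD1 (0.957). These values rested largely on the 6 libraries of IM 6h and IM 18h. Without them, over 21 libraries, they were 0.43, 0.40, 0.62, 0.49 and 0.51. CYP3A5 and ABCG2 correlated at 0.802 over 27 libraries and at -0.02 over the 21. For the transporters the closest genes were ME1 for ABCB1 (0.804, and 0.73 over the 21), ABRAXAS1 for ABCG2 (0.907 and 0.53), GSE1 for ABCC1 (0.821 and 0.76) and CCDC125 for ABCC4 (0.886 and 0.89), so the ABCC4 value hardly moved without the imatinib libraries of 6 h and 18 h.

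**Figure D5:**
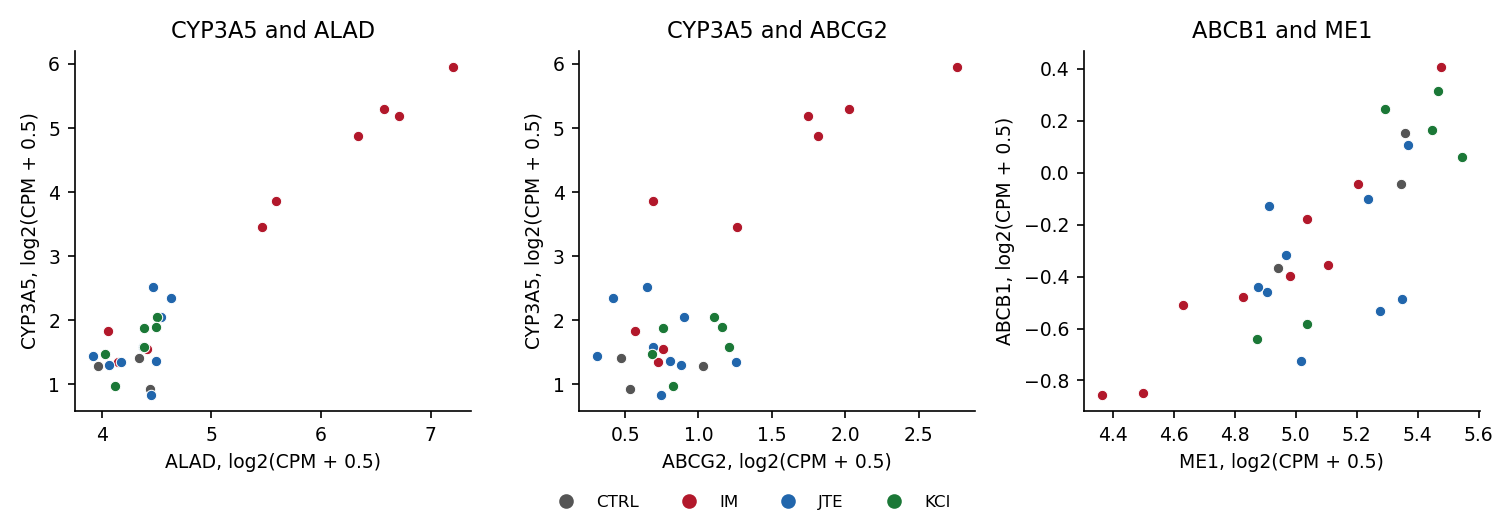
Levels on the log2(CPM + 0.5) scale in the 27 mRNA libraries for CYP3A5 against ALAD, CYP3A5 against ABCG2 and ABCB1 against ME1, 1 point per library coloured by treatment. In the left and middle panels the imatinib libraries of 6 h and 18 h stretch away from a cluster of the others, with r of 0.966 and 0.802, while ABCB1 and ME1 spread over all treatments with r of 0.804.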

How the data were processed

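The authors deposited raw counts (read pairs over the exons of each gene). They used fastp (trimming and deduplication), STAR on hg38 (unique alignments only, introns up to 10000 bases) and featureCounts. The kit keeps strand, but no strand option was used, so antisense reads were counted too. The annotation release was not given in the sources used here. GENCODE 44 holds 57532 of the 58243 IDs, 99.96% of them at an overlapping position.

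The quasi-likelihood test of edgeR 4.0.16 (R 4.3.3) was fitted to the counts (TMM, filterByExpr with a minimum count of 10), all libraries of a fraction in 1 fit. Nuclear against mRNA responses were tested as an interaction. DESeq2 1.42.0 was an alternative, beside RLE size factors, no filter, no fold threshold, only the groups compared, a replicate block and each library left out. Code was tested on simulated data.

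Same-numbered libraries deviated together (every correlation over 0.1) in all nuclear comparisons and in mRNA IM 18h with IM 1h, JTE 18h with JTE 1h and KCl 3h with KCl 1h. In mRNA against CTRL they did not, although replicate 3 reached 0.877 with IM 1h. The paper's read totals give 19031221 for mRNA CTRL replicate 1 and 18333127 for replicate 2, the reverse of the labels used here. Whether these 2 were exchanged was not tested, and the mRNA replicate block rests on the labels.

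Members and lists were chosen with earlier results of these data known. Besides members, the text names from each list up to 4 called genes with the largest change in mRNA IM 18h and a mean of at least 1 CPM in the higher group, its 2 most abundant genes, all tested cluster neighbours, and the genes most like each member (5 for CYP3A5, 1 for others). Cluster genes, GATA1, ABCF2, TAP2, CYP19A1, CYP26A1, CYP4Z1, CYP4A22, CYP8B1, FOXA2, ARNT, RXRA, NR1I2 and NR1I3 were named after their values were seen. CYP3A5 in mRNA against CTRL, and every member at IM 6h, were described without a test. So was CYP3A5 in mRNA IM 18h against IM 1h or JTE 18h and in nuclear IM 18h against CTRL (planned as tests). Promoters and coding sequences are from RefSeq (GRCh38.p14) and GENCODE 44. ABCC1 had no promoter entry. Intervals on counts cover counting error only. A listed erythroid gene is not reported here.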

Additional observations from a re-analysis of the deposited data

How the results depend on the processing

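The 19 comparisons were recomputed under 6 settings with all libraries kept and in 78 fits that each left out 1 of the 42 libraries. Of 409 values with a log2 fold change beyond 0.3, 0 changed direction, and of 684 smaller ones, none of which was called, 93 did. The nuclear CYP3A5 difference of JTE 1h from CTRL was one of these (-0.015 to 0.10 with a library left out).

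At mRNA IM 18h against CTRL, 1 transporter was called in place of 2 in a fit of only the groups compared, and 1 to 2 with a library left out, ABCB1 being the one lost. In nuclear KCl 1h, 3 members were called by DESeq2 (16.9% of all genes), 4 without the filter (19%) and 0 to 3 with a library left out. In the last, CYP3A4 and CYP3A7 entered as the filter let them pass. They pass it only through the KCl 1h libraries, where they are high, so their calls in those fits support nothing. For JTE 18h against JTE 1h, 0 to 1 were called with a library left out. The described CYP3A5 value at IM 6h ran from 2.71 to 3.52. The replicate block changed 1 call, that of ABCB1 in nuclear IM 18h (-1.20, edgeR adjusted p = 0.0458), so that ABCB1 joined ABCG2 among the transporters called there. The cause of these changes was not tested.

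The counts limit ABCB1 and the CYP3A genes other than CYP3A5 most, since a few read pairs per library carry their values. With 3 libraries a group, the p-values rest on the spread between libraries, estimated over all groups fitted together and with information shared over genes. They cover these experiments alone, and the main test did not pair same-numbered libraries.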
